A study of Mus musculus with 8 samples.

Results

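The genes described here are 56 genes of mitosis, of the kinetochore and of the spindle. They were chosen by name for the machinery they encode, with earlier results of these data known. All 56 were among the 25078 gene rows of the deposited tables, and all 56 passed the filter on low counts that left 12428 genes for testing. They fall into 12 roles, from the cyclins that start mitosis to the proteins that cut the daughter cells apart. The RNA came from splenic C57BL/6 donor T cells, taken on day 6 after hematopoietic cell transplantation (HCT) into lethally irradiated, wild-type BALB/c recipients. Donor T cells were wild type (WT), or lacked STAT3 because a Cre recombinase under Cd4 regulatory sequences deletes a floxed part of Stat3 in T cells (STAT3KO, Stat3 fl/fl with CD4-Cre). Since that Cre acts in the thymus, where T cell precursors carry both coreceptors, CD4+ and CD8+ T cells of the STAT3KO donors both lack the floxed part. In every group the recipients also received T cell-depleted bone marrow of WT C57BL/6 donors. CD4+ and CD8+ T cells of each genotype were sorted apart, which made 4 groups of 2 libraries, and each library pooled the cells of several recipients, so that a replicate is a pool and not an animal.

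A T cell that meets its antigen divides many times over several days. During each division, cyclin B with CDK1 drives the cell into mitosis, condensin compacts the chromosomes, microtubules attach to the kinetochore built on each centromere, and the spindle checkpoint holds the anaphase-promoting complex until every kinetochore is attached. Most genes of these proteins have their highest RNA levels in G2 and mitosis, so their RNA in a bulk sample follows the cycling of its cells. With bulk RNA, a larger share of cycling cells and more of these transcripts per cycling cell cannot be told apart.

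Many promoters of such genes hold a CHR (cell cycle genes homology region), where the MuvB complex binds together with B-MYB and FOXM1 or with the repressive DREAM proteins, and CCAAT boxes, which bind NF-Y. Since the members moved together, windows from 250 bases before to 50 bases after the transcription start (RefSeq, build GRCm38.p6, which is mm10) were searched on both strands, for the CHR as TTTGAA or TTCGAA and for the CCAAT box as CCAAT. Windows were found for 47 of the 56 members. They were not found for Aurkb, Ccna2, Cdc25c, Foxm1, Incenp, Kif20a, Smc4, Spc24 and Tpx2. A CHR-type motif was present for 36 of the 47 (76.6%), against 21.7% of 27025 genes, and a CCAAT box for 34 of the 47 (72.3%), against 41.1%. Both motifs were found for 31 members (66.0%, against 9.65% of all genes). Of the other members, Ccnb1, Cenpe and Cenpk had only the CCAAT box, and Birc5, Mad2l1, Mybl2, Ncaph, Nuf2, Nusap1, Plk4 and Pttg1 had neither. For Kif2c and Pttg1 the RefSeq start lies 3852 and 270 bases inside the gene as counted, so their windows may not show the promoter in use, and without them the shares were 77.8% and 75.6% of 45 members. These are letters found in a window and not binding sites.

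The windows below run from 100 bases before to 30 bases after the start of 8 members, in the direction of transcription, with the motif letters of either strand in capitals. The first 6, chosen to span the roles, hold both motifs close together, and the last 2, of members with one of the highest (Nuf2) and one of the lowest (Mybl2) STAT3KO effects in CD4+ T cells, hold neither.
Ccnb2, chr9:70421525-70421654, minus strand: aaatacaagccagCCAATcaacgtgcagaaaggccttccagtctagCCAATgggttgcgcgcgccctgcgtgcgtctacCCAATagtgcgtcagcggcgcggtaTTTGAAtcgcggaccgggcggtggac
Cdk1, chr10:69352883-69353012, minus strand: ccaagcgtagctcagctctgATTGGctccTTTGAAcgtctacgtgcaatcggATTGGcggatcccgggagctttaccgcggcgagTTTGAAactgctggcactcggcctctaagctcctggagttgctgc
Cdc20, chr4:118437314-118437443, minus strand: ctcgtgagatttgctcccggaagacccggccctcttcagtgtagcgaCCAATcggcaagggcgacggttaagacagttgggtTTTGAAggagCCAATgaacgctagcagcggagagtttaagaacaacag
Kif11, chr19:37376282-37376411, plus strand: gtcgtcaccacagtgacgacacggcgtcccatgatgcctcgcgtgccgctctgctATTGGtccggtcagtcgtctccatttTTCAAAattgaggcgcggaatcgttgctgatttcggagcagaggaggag
Racgap1, chr15:99651627-99651756, minus strand: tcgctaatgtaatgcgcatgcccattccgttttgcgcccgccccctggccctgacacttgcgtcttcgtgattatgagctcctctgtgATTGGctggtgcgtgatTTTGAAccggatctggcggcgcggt
Hmmr, chr11:40733408-40733537, minus strand: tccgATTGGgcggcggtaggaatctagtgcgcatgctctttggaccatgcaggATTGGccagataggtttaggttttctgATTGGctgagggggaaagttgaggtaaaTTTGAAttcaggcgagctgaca
Nuf2, chr1:169531435-169531564, minus strand: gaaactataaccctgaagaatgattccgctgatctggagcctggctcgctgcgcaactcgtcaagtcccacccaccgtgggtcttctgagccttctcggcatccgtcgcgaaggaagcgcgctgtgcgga
Mybl2, chr2:163054535-163054664, plus strand: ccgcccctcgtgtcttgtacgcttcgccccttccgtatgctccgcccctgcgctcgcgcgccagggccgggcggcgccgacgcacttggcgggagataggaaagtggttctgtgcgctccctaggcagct

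Over all member windows, CHR-type motifs began most often just after the start and CCAAT boxes most often upstream of it, though in single windows the order varied, as for Cdk1 and Cdc20 above. In the first 25 bases from the start, a CHR-type motif began in 29.4% of 51 member windows and in 1.43% of 32851 windows of all genes. Between 75 and 51 bases before the start, a CCAAT box began in 33.3% of member windows and in 6.99% of all windows.

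**Figure D1:**
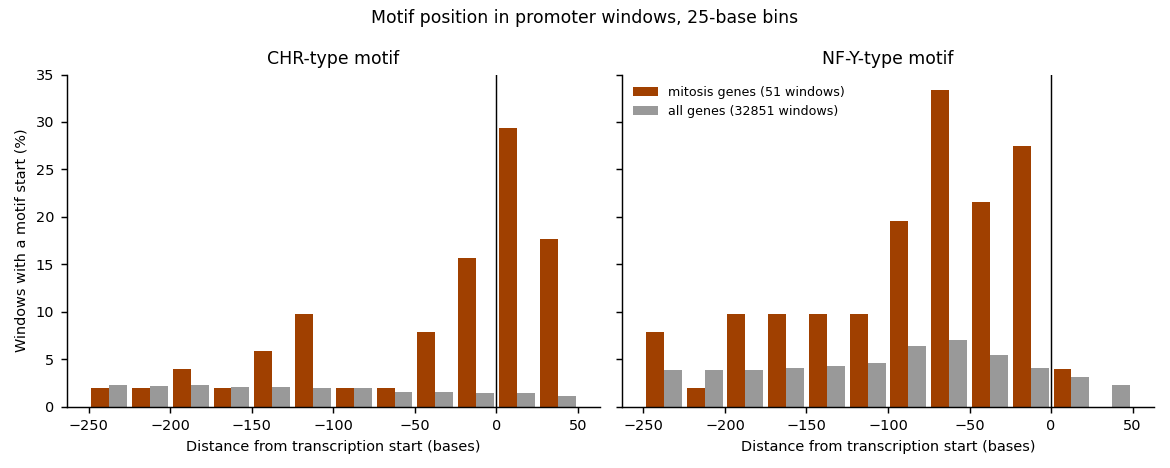
Share of promoter windows (vertical axis, %) in which a motif begins in each 25-base bin, by distance from the transcription start (horizontal axis, bases), for the members (51 windows of 47 genes) and all genes (32851 windows). The left panel shows the CHR-type motif, with its highest member bar of 29.4% just after the start, and the right panel the CCAAT box bound by NF-Y, with its highest member bar of 33.3% between 75 and 51 bases upstream.

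The 8 libraries held between 20171396 and 23282757 counts, and the lowest count of any member in any library was 94 (Cenpk). The targeted gene was checked first. In CPM (library-scaled counts, here after TMM), Stat3 was at 436 and 428 in the WT and 138 and 141 in the STAT3KO CD4+ libraries, and at 431 and 436 in the WT and 120 and 143 in the STAT3KO CD8+ libraries. It fell by 1.63 (SE 0.12) on the log2 scale in CD4+ and by 1.72 (SE 0.12) in CD8+ T cells, which matches the labels. Cd4 had at least 1403 CPM by total count in the CD4+ and at most 8.05 in the CD8+ libraries, and Cd8a at least 805 in the CD8+ and at most 15.9 in the CD4+ libraries. Of marker lists of other cells, the summed level of 6 B cell markers was 106 to 124 CPM in WT CD4+ and 149 to 171 in STAT3KO CD4+ T cells, and 37.4 to 54.6 in the CD8+ libraries. Cd22 made up most of that sum. Of the other 5 markers, Cd79a, Ms4a1 and Ebf1 were at most 0.35, 0.15 and 0.57 CPM, Cd79b reached 12.8 CPM in the CD8+ and 2.46 in the CD4+ libraries, and Pax5 went against the sum, with 16.8 and 9.89 CPM in WT CD4+ and 0.20 and 0.50 in STAT3KO CD4+ T cells. The lists of macrophages and monocytes (9 genes, 22.2 to 142 CPM), of neutrophils and myeloid progenitors (9 genes, 3.54 to 22.7) and of erythroid cells (10 genes, 0.892 to 7.92, with the 5 globin genes at 0 throughout) had overlapping ranges in WT and STAT3KO libraries, except that in CD8+ T cells the neutrophil list was at 9.32 to 22.7 CPM in WT and 6.44 to 7.39 in STAT3KO libraries. The macrophage sum was higher in replicate 2 than in replicate 1 of every group. The part of other cells in the results was not tested.

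Together the 56 genes took the smallest share of the counts in WT CD4+ T cells. The summed share was 0.420% and 0.345% in the WT and 0.800% and 0.777% in the STAT3KO CD4+ libraries, and 1.14% and 0.927% in the WT and 1.32% and 1.32% in the STAT3KO CD8+ libraries. On average STAT3KO CD4+ libraries held 2.06 times the share of WT CD4+ libraries and STAT3KO CD8+ libraries 3.45 times, with WT CD8+ libraries between them. No library of one group reached into the range of another. For 51 of the 56 members the group means had this same order. Mybl2 had its highest mean in WT CD8+ T cells. For 4 members, Cdc25b, Nuf2, Spc25 and Smc4, the mean was higher in STAT3KO CD4+ than in WT CD8+ T cells. Of these exceptions only Smc4 had pools that did not overlap. Spc25 had 41.9 and 40.9 CPM in the STAT3KO CD4+ and 43.7 and 38.6 in the WT CD8+ libraries. For all 56 members, both WT CD4+ libraries lay below the other 6 libraries, which held for 14.5% of all genes tested. Across the 8 libraries each member followed the mean of the others with a correlation between 0.839 and 0.999 (median 0.985), a description over libraries that share the groups.

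**Figure D2:**
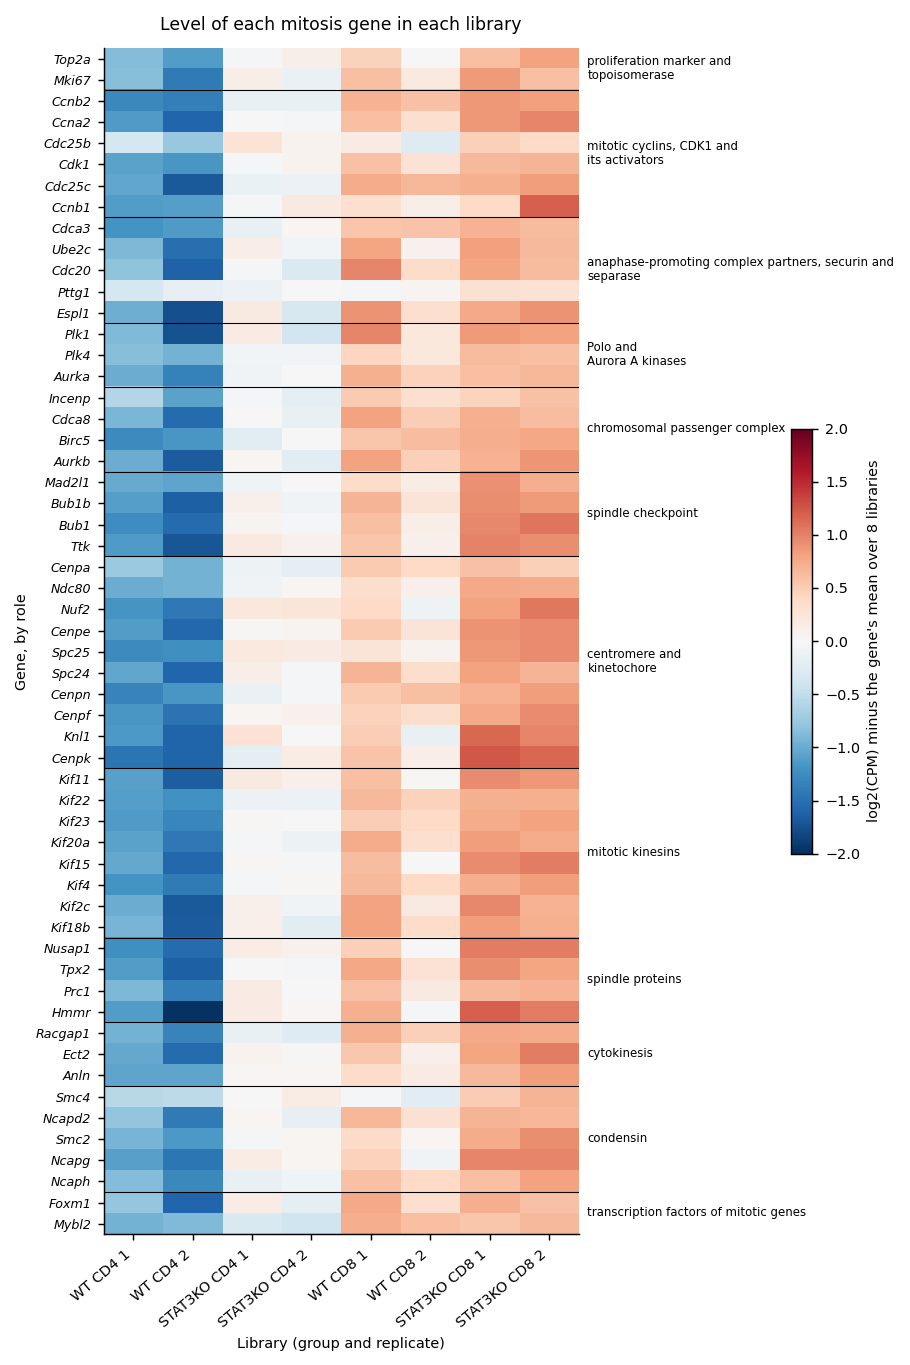
Level of each of the 56 genes (rows, by role) in each of the 8 libraries (columns), as log2(CPM) minus the gene's mean over the libraries, on the color scale. The 2 WT CD4+ columns are the lowest of every row, and in most rows the color deepens from STAT3KO CD4+ to WT CD8+ to STAT3KO CD8+.

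The comparison of STAT3KO with WT within CD4+ T cells sets donor CD4+ T cells without STAT3 beside WT ones after HCT. The authors report severe acute graft-versus-host disease in recipients of WT T cells and a mild form in those of STAT3KO T cells. Genotype and the state of the recipients cannot be told apart here. In CD4+ T cells, 53 of the 56 members rose and none fell (edgeR quasi-likelihood test, adjusted p under 0.05), where 6.54% of all 12428 genes were called higher. The median log2 fold change of the members was 1.19, from 0.21 to 1.59, against a median of 0.02 over all genes. Both STAT3KO libraries exceeded both WT libraries for all 56 members, which was so for 28.5% of all genes tested. The 3 that were not called were Cdc20 (log2 fold change 0.99, SE 0.29, edgeR adjusted p 0.0655), Plk1 (1.17, SE 0.34, edgeR adjusted p 0.0690) and Pttg1 (0.21, SE 0.11, edgeR adjusted p 0.269). The number called depended on single pools and fell to 35 without WT CD4+ replicate 2, to 28 without STAT3KO CD4+ replicate 1 and to 34 without STAT3KO CD4+ replicate 2, with all 56 estimates above 0 each time. No member had an unadjusted p under 0.05 in the lower direction. Within replicate number 1 and within number 2, all 56 were higher in the STAT3KO library, with medians of 1.03 and 1.32.

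The same comparison within CD8+ T cells gave smaller values. Of the 56 members, 2 rose and none fell, where 1.34% of all genes were called higher. Spc25 (log2 fold change 0.74, SE 0.10, edgeR adjusted p 0.0227) is a subunit of the Ndc80 complex, and Smc4 (0.72, SE 0.12, edgeR adjusted p 0.0292) is a core ATPase of condensin. Neither was called in the absence of any one CD8+ library or either STAT3KO CD4+ library, where none of the members was called. Estimates were above 0 for 55 of 56 members, with a median of 0.30 (from -0.07 to 0.86), against -0.01 over all genes. For 26 members the unadjusted p was under 0.05 in the higher direction, against 10.7% of all genes, and for 41 members both STAT3KO libraries exceeded both WT libraries, against 24.9%. The median differed between the pools, at 0.16 within replicate number 1, where 46 of 56 were higher, and 0.51 within number 2, where 56 were. Without WT CD8+ replicate 1 the median was 0.51, and without WT CD8+ replicate 2 it was 0.18, with 45 of 56 estimates above 0.

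Whether the STAT3KO effect differed between CD8+ and CD4+ T cells was tested as the difference of both effects. By edgeR without a replicate block no member was called, and of all genes 0% were called. The estimate was lower in CD8+ T cells for 54 of 56 members, with a median of -0.86 (from -1.13 to 0.10). The unadjusted p was under 0.05 for 46 members, all lower in CD8+, against 4.58% of all genes. The smallest adjusted p of a member was 0.105, shared by Ccnb2 and Cdca3. The DESeq2 Wald test called 18 members, all lower in CD8+ T cells, against 0.958% of all genes, and the edgeR fit without a filter on low counts called 5, all lower, against 0.113%. With a replicate block edgeR called 35, all lower, against 2.08% of all genes called lower. The labels do not say what a replicate number marks, but deviations of same-numbered libraries correlated between 0.44 and 0.73 across pairs of groups. The number called thus depends on whether replicate number is fitted. 

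**Figure D3:**
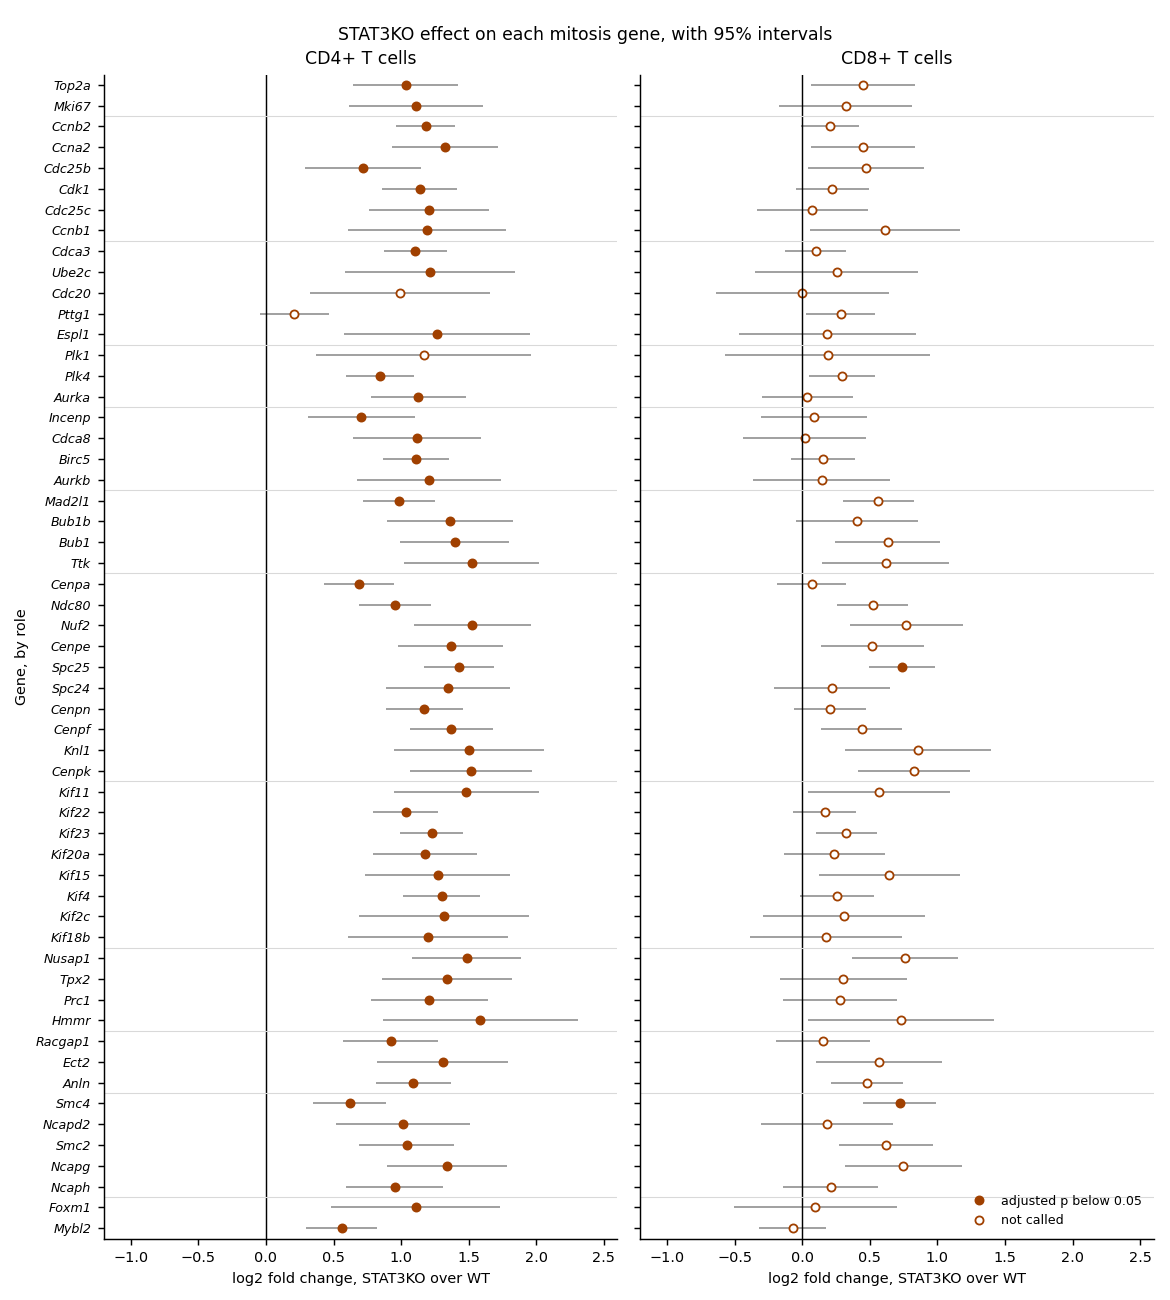
Log2 fold change of STAT3KO over WT (horizontal axis) of each of the 56 genes (vertical axis, by role) in CD4+ (left) and CD8+ (right) T cells, with 95% intervals from the edgeR fit; filled points have an adjusted p below 0.05. In CD4+ T cells 53 points are filled and all lie above 0, and in CD8+ T cells 2 are filled and most lie between 0 and 0.86.

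Among the roles, the proliferation marker and topoisomerase genes come first. Mki67 (chromosome 7, 135689788 to 135716379, mm10) encodes a protein that coats mitotic chromosomes and is the usual marker of cycling cells. Mki67 was at 739 and 503 CPM in the WT and 1454 and 1223 in the STAT3KO CD4+ libraries, and 2036 and 1526 in the WT and 2416 and 2033 in the STAT3KO CD8+ libraries. The CD4+ groups stood apart, while the CD8+ groups overlapped slightly, since the lower STAT3KO pool lay just below the higher WT pool. Its log2 fold change was 1.11 (SE 0.21, edgeR adjusted p 0.0168) in CD4+ and 0.32 (95% interval -0.17 to 0.81) in CD8+ T cells. Top2a (chromosome 11, 98992947 to 99024189) encodes the topoisomerase that untangles sister DNA, and had the highest mean RPKM (158) of the members. Levels of Top2a were 421 and 355 CPM in the WT and 757 and 832 in the STAT3KO CD4+ libraries, and 1053 and 774 in the WT and 1162 and 1332 in the STAT3KO CD8+ libraries. It rose by 1.03 (SE 0.17) in CD4+ T cells, and its estimate in CD8+ T cells was 0.45 (95% interval 0.06 to 0.83, edgeR adjusted p 0.195).

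The 6 cyclins, CDK1 and phosphatases that switch CDK1 on all rose in STAT3KO CD4+ T cells (median log2 fold change 1.19, from 0.72 to 1.33), and none was called in CD8+ T cells (median 0.34). Ccnb2 (chromosome 9, 70407689 to 70421554), a B-type cyclin whose window above holds 3 CCAAT boxes ahead of a CHR-type motif, had 51.1 and 48.0 CPM in the WT and 112 and 112 in the STAT3KO CD4+ libraries, and 201 and 186 in the WT and 226 and 220 in the STAT3KO CD8+ libraries. The 4 groups formed 4 separate steps. Its log2 fold change was 1.18 (SE 0.09, edgeR adjusted p 0.000958) in CD4+ and 0.21 (95% interval -0.01 to 0.42) in CD8+ T cells, and the difference was -0.97 (95% interval -1.28 to -0.67). For Cdk1 itself the CD4+ value was 1.14 and the CD8+ value 0.22. The lowest effect in CD4+ T cells within this role was that of Cdc25b (0.72), one of the phosphatases.

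Of the 5 genes grouped as anaphase-promoting complex partners, securin and separase, 3 rose in STAT3KO CD4+ T cells. Cdca3 (chromosome 6, 124830176 to 124833701), an adaptor for the breakdown of an inhibitor of mitotic entry, had 42.0 and 43.5 CPM in the WT and 85.9 and 98.0 in the STAT3KO CD4+ libraries, and 141 and 142 in the WT and 155 and 148 in the STAT3KO CD8+ libraries. The CD4+ groups were far apart and the CD8+ groups nearly met, with log2 fold changes of 1.11 (SE 0.10, edgeR adjusted p 0.00133) and 0.10 (95% interval -0.13 to 0.33). Ube2c, the ubiquitin-conjugating enzyme of the complex, and Espl1, the separase that cuts cohesin, also rose in CD4+ T cells, by 1.21 and 1.27.

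Cdc20, the activator through which the spindle checkpoint acts, had 27.6 and 15.7 CPM in the WT and 46.9 and 39.3 in the STAT3KO CD4+ libraries, and 95.2 and 62.1 in the WT and 82.9 and 74.5 in the STAT3KO CD8+ libraries. The WT pools were far apart in both cell types, and the 2 STAT3KO CD8+ pools lay between the WT CD8+ pools, where the log2 fold change was 0.00 (95% interval -0.64 to 0.64). Pttg1, which encodes securin, the inhibitor of separase, had 33.8 and 38.6 CPM in the WT and 40.1 and 43.6 in the STAT3KO CD4+ libraries, and 42.5 and 44.8 in the WT and 53.3 and 53.0 in the STAT3KO CD8+ libraries. Its groups kept the order of most others. Its step between WT and STAT3KO CD4+ T cells was the smallest of the members, while that in CD8+ T cells was near their median. The estimates were 0.21 (95% interval -0.05 to 0.46) in CD4+ and 0.28 (95% interval 0.03 to 0.54) in CD8+ T cells.

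Of the 3 Polo and Aurora A kinase genes, Plk4 (0.84), the kinase of centriole duplication, and Aurka (1.13), the kinase of the spindle poles, rose in STAT3KO CD4+ T cells. Plk1 (chromosome 7, 122159435 to 122169884), which acts from mitotic entry to cytokinesis, had 22.3 and 12.2 CPM in the WT and 45.9 and 31.5 in the STAT3KO CD4+ libraries, and 80.6 and 47.2 in the WT and 74.1 and 71.8 in the STAT3KO CD8+ libraries. Its pools were far apart in 3 of the 4 groups, and it was not called. None was called in CD8+ T cells, where the estimates were 0.19 for Plk1, 0.29 for Plk4 and 0.04 for Aurka.

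The chromosomal passenger complex holds Aurora B at centromeres and then at the midzone. Its STAT3KO estimates were lower in CD8+ than in CD4+ T cells for all 4 genes. None of these differences was called (edgeR without a replicate block, adjusted p 0.122 to 0.560). All 4 genes rose in STAT3KO CD4+ T cells, Aurkb by 1.21, Birc5 (survivin) by 1.11, Cdca8 (borealin) by 1.12 and the scaffold Incenp by 0.71, and none was called in CD8+ T cells, where the estimates ran from 0.02 to 0.16. Incenp (chromosome 19, 9872295 to 9899489) had 111 and 80.0 CPM in the WT and 166 and 146 in the STAT3KO CD4+ libraries, and 242 and 210 in the WT and 230 and 251 in the STAT3KO CD8+ libraries. Cdca8 had 33.3 and 21.6 CPM in the WT and 62.3 and 56.8 in the STAT3KO CD4+ libraries, and 109 and 88.5 in the WT and 103 and 97.1 in the STAT3KO CD8+ libraries. For both genes the CD8+ groups overlapped. The estimate of Cdca8 in CD8+ T cells was 0.02 (95% interval -0.44 to 0.47), and its difference from that in CD4+ T cells was -1.10 (95% interval -1.75 to -0.45, edgeR adjusted p 0.299).

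The 4 spindle checkpoint genes rose in STAT3KO CD4+ T cells by 0.99 to 1.52 (median 1.38). None was called in CD8+ T cells. Both STAT3KO libraries there exceeded both WT libraries for all 4, against 24.9% of all genes, with a median log2 fold change of 0.59. Mad2l1 (chromosome 6, 66535221 to 66541107), whose protein binds and blocks CDC20, had 61.4 and 59.2 CPM in the WT and 116 and 123 in the STAT3KO CD4+ libraries, and 159 and 136 in the WT and 231 and 205 in the STAT3KO CD8+ libraries. Here the CD8+ groups were well apart, with a log2 fold change of 0.56 (SE 0.11, edgeR adjusted p 0.0538), beside 0.99 (SE 0.11, edgeR adjusted p 0.00269) in CD4+ T cells. Ttk, the kinase that starts checkpoint signaling, had 15.2 and 10.2 CPM in the WT and 37.6 and 35.1 in the STAT3KO CD4+ libraries, and 48.8 and 35.7 in the WT and 65.8 and 63.6 in the STAT3KO CD8+ libraries. Its log2 fold change was 1.52 (SE 0.21, edgeR adjusted p 0.00508) in CD4+ and 0.62 (95% interval 0.15 to 1.08) in CD8+ T cells.

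All 10 centromere and kinetochore genes rose in STAT3KO CD4+ T cells (median 1.37, from 0.69 to 1.53), and 1 of the 10, Spc25, rose in CD8+ T cells (median 0.52). Within the Ndc80 complex, the 4-subunit rod that grips the microtubule, the log2 fold changes in CD4+ T cells were 0.96 for Ndc80, 1.53 for Nuf2, 1.35 for Spc24 and 1.43 for Spc25. The corresponding CD8+ values were 0.52 for Ndc80, 0.77 for Nuf2, 0.22 for Spc24 and 0.74 for Spc25. Nuf2 had 27.1 and 22.6 CPM in the WT and 70.6 and 72.6 in the STAT3KO CD4+ libraries, and 80.6 and 56.8 in the WT and 107 and 127 in the STAT3KO CD8+ libraries. Its STAT3KO CD4+ pools thus lay inside the range of the WT CD8+ pools.

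Knl1 and Cenpk, which encode the scaffold that recruits checkpoint proteins and a subunit of the inner kinetochore, had the highest estimates of the members in CD8+ T cells. Knl1 had 45.8 and 33.6 CPM in the WT and 124 and 101 in the STAT3KO CD4+ libraries, and 144 and 91.6 in the WT and 226 and 201 in the STAT3KO CD8+ libraries. Cenpk had 4.89 and 4.44 CPM in the WT and 11.9 and 14.9 in the STAT3KO CD4+ libraries, and 20.0 and 14.8 in the WT and 31.9 and 29.9 in the STAT3KO CD8+ libraries. For both genes STAT3KO and WT libraries were apart in either cell type. The CD8+ estimates were 0.86 (95% interval 0.32 to 1.40, edgeR adjusted p 0.103) for Knl1 and 0.83 (95% interval 0.42 to 1.24, edgeR adjusted p 0.0635) for Cenpk. Cenpa (chromosome 5, 30666886 to 30674837), the histone variant that marks the centromere, was the most abundant of the role by RPKM and the one with the lowest effects. Levels of Cenpa were 82.2 and 71.7 CPM in the WT and 128 and 120 in the STAT3KO CD4+ libraries, and 197 and 180 in the WT and 206 and 190 in the STAT3KO CD8+ libraries. Its CD8+ groups overlapped, and the log2 fold change was 0.69 (SE 0.11, edgeR adjusted p 0.00867) in CD4+ and 0.07 (95% interval -0.18 to 0.33) in CD8+ T cells.

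The 8 kinesins, motors that slide, cross-link or depolymerize microtubules, rose in STAT3KO CD4+ T cells by 1.03 to 1.48 (median 1.25), and none was called in CD8+ T cells (median 0.28). Kif11 (chromosome 19, 37376382 to 37421863), which pushes the spindle poles apart, had 119 and 80.1 CPM in the WT and 285 and 272 in the STAT3KO CD4+ libraries, and 384 and 258 in the WT and 487 and 462 in the STAT3KO CD8+ libraries. The WT CD8+ pools lay far apart, with the STAT3KO CD4+ pools between them. Its log2 fold change was 1.48 (SE 0.23, edgeR adjusted p 0.00758) in CD4+ and 0.57 (95% interval 0.04 to 1.09) in CD8+ T cells. The kinesins of cytokinesis, Kif23 and Kif20a, rose in CD4+ T cells by 1.23 and 1.18, and the microtubule depolymerase Kif2c by 1.32.

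The 4 spindle proteins had the highest median of the roles in CD4+ T cells (1.41), and all 4 rose there. Hmmr, a microtubule-associated protein of the spindle poles, had 33.7 and 18.6 CPM in the WT and 81.7 and 75.1 in the STAT3KO CD4+ libraries, and 119 and 71.3 in the WT and 167 and 149 in the STAT3KO CD8+ libraries. It had the highest log2 fold change of the members in CD4+ T cells, 1.59 (SE 0.31, edgeR adjusted p 0.0175), and 0.73 (95% interval 0.04 to 1.42) in CD8+ T cells. Nusap1 (chromosome 2, 119618298 to 119650160), which bundles microtubules near chromatin, had 58.4 and 46.7 CPM in the WT and 150 and 144 in the STAT3KO CD4+ libraries, and 190 and 137 in the WT and 277 and 276 in the STAT3KO CD8+ libraries. Both STAT3KO CD8+ pools were well above the WT CD8+ pools, and the estimates were 1.48 in CD4+ (SE 0.17, edgeR adjusted p 0.00275) and, among CD8+ T cells, 0.76 (SE 0.17, edgeR adjusted p 0.0684). Tpx2, the activator of Aurora A, and Prc1, which bundles the midzone, rose in CD4+ T cells by 1.34 and 1.21.

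The 3 cytokinesis genes rose in STAT3KO CD4+ T cells, Ect2, the activator of RhoA at the cleavage site, by 1.31, anillin (Anln) by 1.09 and Racgap1 by 0.92. Racgap1 (chromosome 15, 99620496 to 99651656), a part of centralspindlin, had 106 and 81.2 CPM in the WT and 184 and 171 in the STAT3KO CD4+ libraries, and 335 and 284 in the WT and 347 and 341 in the STAT3KO CD8+ libraries. The CD8+ groups were close but did not overlap, with an estimate of 0.15 (95% interval -0.19 to 0.50).

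The 5 condensin genes rose in STAT3KO CD4+ T cells (median 1.02), and Smc4 also rose in CD8+ T cells (median of the 5, 0.62). Smc4 (chromosome 3, 69004738 to 69034623) had 418 and 429 CPM in the WT and 621 and 680 in the STAT3KO CD4+ libraries, and 602 and 528 in the WT and 874 and 988 in the STAT3KO CD8+ libraries. The step between WT and STAT3KO was of like size in both cell types, with log2 fold changes of 0.62 (SE 0.12, edgeR adjusted p 0.0147) and 0.72 (SE 0.12), and a difference of 0.10 (95% interval -0.27 to 0.48). Smc4 and Pttg1 were the only 2 members whose difference between the cell types was not below 0 in the fit of all 8 libraries. The estimates of the others in CD8+ T cells were 0.75 for Ncapg, 0.62 for Smc2, 0.21 for Ncaph and 0.18 for Ncapd2.

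Both transcription factors of mitotic genes rose in STAT3KO CD4+ T cells, and neither was called in CD8+ T cells. Foxm1 (chromosome 6, 128362994 to 128375886) had 42.9 and 24.5 CPM in the WT and 81.6 and 63.7 in the STAT3KO CD4+ libraries, and 124 and 91.9 in the WT and 121 and 110 in the STAT3KO CD8+ libraries. Mybl2, which encodes B-MYB, had 12.9 and 13.5 CPM in the WT and 20.1 and 18.9 in the STAT3KO CD4+ libraries, and 41.2 and 37.9 in the WT and 36.3 and 39.0 in the STAT3KO CD8+ libraries. Mybl2 differed far more between CD8+ and CD4+ T cells than between genotypes, and its groups overlapped in CD8+ T cells. The log2 fold changes were 1.11 for Foxm1 (SE 0.27, edgeR adjusted p 0.0367) and 0.56 for Mybl2 (SE 0.11, edgeR adjusted p 0.0192) in CD4+, and 0.10 (95% interval -0.51 to 0.70) and -0.07 (95% interval -0.32 to 0.18) in CD8+ T cells.

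**Figure D4:**
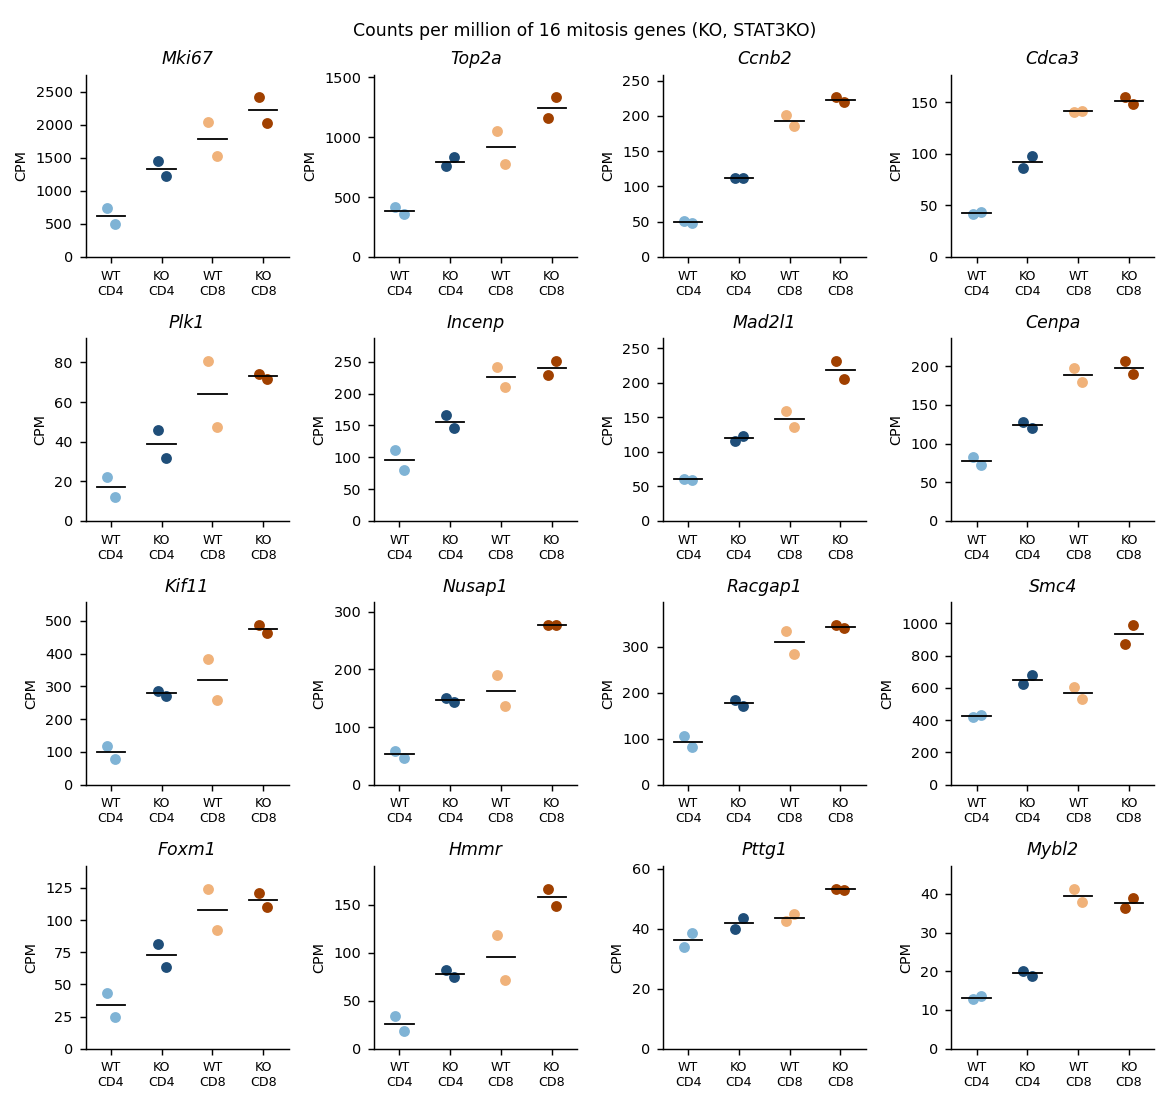
CPM (vertical axes, starting at 0) of 16 members in each library, by group (horizontal axes; KO, STAT3KO); points are the 2 libraries of a group and bars their mean. Smc4 has its WT CD8+ pools below the STAT3KO CD4+ pools, Mybl2 has both CD4+ groups far below both CD8+ groups, and Pttg1 has the smallest step between both CD4+ groups relative to its level.

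Members with and without a CHR-type motif in their promoter window were set side by side by their medians, with no test. In CD4+ T cells the median log2 fold change was 1.19 for the 36 members with the motif (from 0.69 to 1.59) and 1.11 for the 11 without it (from 0.21 to 1.53). In CD8+ T cells the medians were 0.31 and 0.52. Nuf2 had no motif in its window and one of the highest effects, while Mybl2 had no motif and one of the lowest effects in CD4+ T cells. Across the 56 members the effects in CD4+ and CD8+ T cells correlated with a Pearson r of 0.47 (Spearman rho 0.55, n = 56), a description across genes that share their libraries. The effect in CD4+ T cells went with the mean RPKM with a rho of -0.36 and with exon length with a rho of 0.18, and the effect in CD8+ T cells went with exon length with a rho of 0.36.

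CD8+ and CD4+ T cells of one genotype were then compared, to set the sorted populations side by side. In WT donors, 54 of 56 members were higher in CD8+ T cells and none lower, against 12.2% of all genes called higher, with a median log2 fold change of 1.68. Cdc25b (0.51, edgeR adjusted p 0.0880) and Pttg1 (0.27, edgeR adjusted p 0.116) were not called. The highest values were 2.03 for Cdc25c, the phosphatase that activates CDK1 at mitotic entry, and 1.96 for Ccnb2 and Espl1. Both CD8+ libraries exceeded both CD4+ libraries for all 56 members, against 29.2% of all genes.

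In STAT3KO donors, 39 of 56 members were higher in CD8+ T cells and none lower, against 5.84% of all genes called higher, with a median of 0.83 (from 0.26 to 1.21). The other 17 were Mki67, Ccnb1, Cdc25b, Cdc20, Ube2c, Pttg1, Espl1, Plk1, Incenp, Spc24, Kif11, Kif18b, Kif2c, Prc1, Hmmr, Ncapd2 and Foxm1. In the group of anaphase-promoting complex partners, securin and separase, Cdca3 (0.72, SE 0.10, edgeR adjusted p 0.00424) was the 1 of 5 that was called. All 4 checkpoint genes and 9 of 10 kinetochore genes were called. Both CD8+ libraries exceeded both CD4+ libraries for all 56 members, against 29.6% of all genes. The number called fell to 9 without STAT3KO CD4+ replicate 1, to 10 without STAT3KO CD4+ replicate 2, to 17 without STAT3KO CD8+ replicate 1 and to 15 without STAT3KO CD8+ replicate 2, with the estimates of all 56 above 0 each time. The difference between these 2 comparisons is the same quantity as the difference of the STAT3KO effects given above, for which edgeR without a replicate block called no member.

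A list of 88 other mitosis genes shows how far the pattern reached. In STAT3KO CD4+ T cells 45 of the 88 rose and none fell (median 0.67, from -0.14 to 1.59), and in CD8+ T cells 4 rose and none fell (median 0.26). Of all genes, 6.54% were called higher in the CD4+ and 1.34% in the CD8+ comparison. Called in CD4+ T cells were 15 of 18 other spindle and cytokinesis genes, 15 of 20 other kinetochore and CENP-A loading genes, 7 of 10 other kinases and CDK partners, and 4 of 7 other checkpoint genes. Aspm, a spindle pole protein, had the highest value of the list (1.59, SE 0.18, edgeR adjusted p 0.00238), with 52.9 and 37.0 CPM in WT CD4+ and 139 and 133 in STAT3KO CD4+ libraries. Next was Kntc1, which recruits dynein to kinetochores (1.57, SE 0.26, edgeR adjusted p 0.00895).

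Other roles of the list hold complexes that also work outside mitosis or are present through the cycle. Of 10 genes of cohesin and its regulators 1 rose in CD4+ T cells (median 0.32), of 12 subunits of the anaphase-promoting complex 1 (median 0.23), of 3 genes of condensin II 1 (median 0.42), and of 8 MuvB, DREAM and B-MYB partner genes 1 (median 0.09). These shares stand beside the 6.54% of all genes called higher, and the roles were not tested against each other. Those 4, named here after their values were seen, were Cdca5 (sororin, which stabilizes cohesin; 1.01), Anapc11 (the RING subunit; 0.61), Ncapg2 (1.28) and Rbl1 (p107; 0.60). The lowest values of the list were those of the DREAM members Rbl2 (p130; -0.14, SE 0.09) and Lin52 (-0.12, SE 0.14), neither of which was called. In CD8+ T cells the 4 called genes, likewise named after their values were seen, were Stag2 (0.63), a cohesin subunit, the kinesins Kif18a (1.01) and Kif20b (0.97), and Depdc1a (1.10).

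DNA replication precedes mitosis in each cycle, and 35 genes of replication origins, helicases and polymerases were set beside the members. In STAT3KO CD4+ T cells 24 of the 35 rose and none fell (median 0.88, from 0.30 to 1.26), against 6.54% of all genes called higher. The highest were Cdc6 (1.26, SE 0.22, edgeR adjusted p 0.0115), which loads the helicase, and Cdc45 (1.24, SE 0.16, edgeR adjusted p 0.00392), a part of the active helicase, and the lowest were Cdt1 (0.30, SE 0.21) and Gins4 (0.34, SE 0.14), which were not called. In CD8+ T cells none of the 35 was called by edgeR, against 1.34% of all genes called higher. For 11 the unadjusted edgeR p was under 0.05 in the higher direction, against 10.7% of all genes, and the median was 0.18. Between CD8+ and CD4+ T cells 34 of 35 were higher in CD8+ in WT and 22 of 35 in STAT3KO donors, against 12.2% and 5.84% of all genes.

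**Figure D5:**
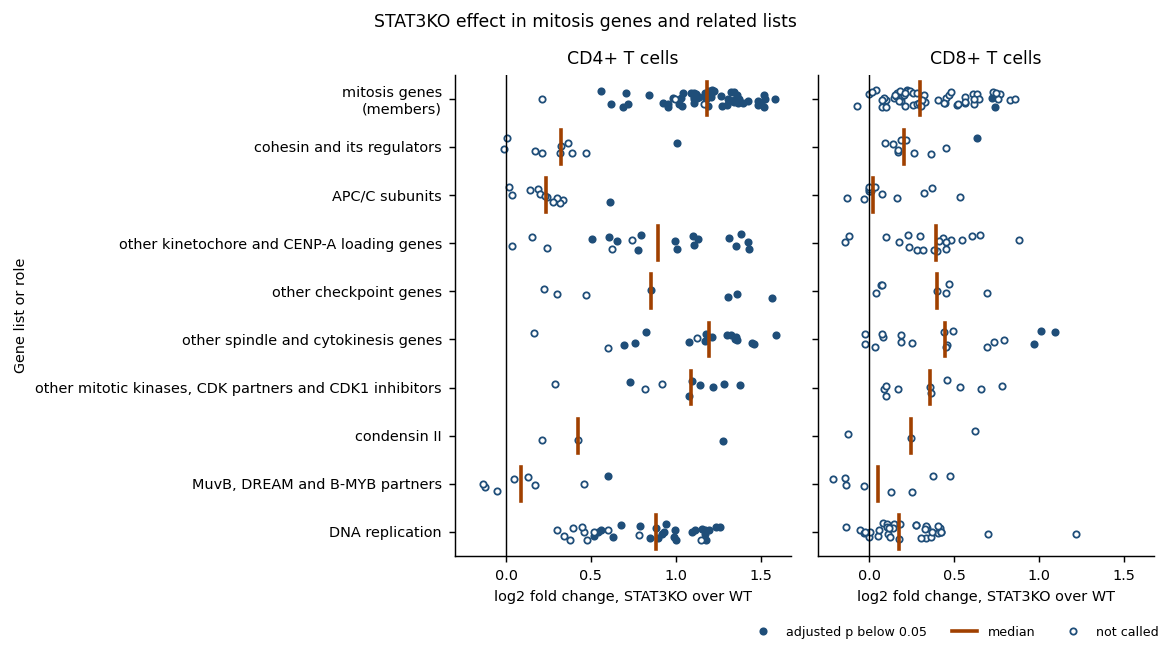
Log2 fold change of STAT3KO over WT (horizontal axis) in CD4+ (left) and CD8+ (right) T cells, for the 56 members, the 8 roles of the 88 other mitosis genes and the 35 DNA replication genes (vertical axis); points are genes, filled where the adjusted p is below 0.05, and bars are medians. In CD4+ T cells the medians run from 0.09 for the MuvB, DREAM and B-MYB partners to 1.20 for the other spindle and cytokinesis genes, and the 35 replication genes have no filled point in CD8+ T cells.

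All 56 members are protein coding in the GENCODE annotation of the same build. Exon bases of 17 of them are shared with another annotated gene, over 10% of the exon bases for 7 (Kif20a, Ube2c, Kif4, Ncapg, Cdc25c, Ccna2 and Prc1, at most 29.3%, for Kif20a with Cdc23 on the opposite strand). It is not stated whether counting used the strand, so the effect of these overlaps on the counts is not known. For 3 of the 17, Top2a, Ncapd2 and Foxm1, the other genes lie on the same strand, which a strand setting would not separate. Their shares were at most 3.78% of exon bases. Reads were counted on RefSeq genes, while these shares are of GENCODE exons.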

How the data were processed

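RNA was sequenced from 8 libraries of sorted splenic donor T cells, 2 for each of 4 groups taken from the titles and characteristics in the labels. An adipogenic cell line is described in the growth and treatment fields, which were not used. The authors aligned reads to mm10 with STAR, counted reads per RefSeq gene with HTSeq, and deposited raw counts and RPKM values (counts scaled by exon length and library size) of 25078 gene rows. The strand setting and whether replicate pools shared a day are not given in the sources used here. P-values of the fit without a replicate block rest on the spread between pools of a group, including any part shared by replicate number.

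The filterByExpr function (minimum count of 10, groups given) kept 12428 genes of the deposited counts. They were scaled by TMM and fitted over all 8 libraries with 1 mean for each group by the quasi-likelihood test of edgeR 4.0.16 in R 4.3.3 (two-sided, Benjamini-Hochberg adjusted p under 0.05 over all genes tested). Standard errors were derived from the F statistic. Unless stated otherwise, CPM are TMM-scaled. Marker levels and shares of counts use total counts. The deposited RPKM served to rank members and for limma 3.58.1 on log2(RPKM + 1). Other alternatives were DESeq2 1.42.0, RLE factors, total counts, no filter, fewer libraries, a replicate block and each library left out. Scripts were tested on simulated data.

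Every member is given by role. Library values are given for Mki67, Top2a, the member with the highest mean RPKM of each role, and the 3 highest and 3 lowest log2 fold changes of each STAT3KO comparison. Members whose call differed from most of their role are named, as are the 2 highest and 2 lowest genes of the other lists in CD4+ T cells. The members, the lists, the rule and the tests were chosen with earlier results of these data known. The printed promoter windows were chosen after the motif search. One gene of the marker lists is not reported here.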

Additional observations from a re-analysis of the deposited data

How the results depend on the processing

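In STAT3KO against WT CD4+ T cells, leaving out 1 library gave 28 to 54 called members, and the median stayed between 1.00 and 1.41. In CD8+ T cells 2 members were called, 14 by DESeq2 (4.56% of all genes called higher), 9 without the low-count filter (1.58%), 0 from the 4 libraries of the comparison alone, and 0 to 2 with 1 library left out. The difference of the effects had 0 called members, 18 by DESeq2 and 5 without the filter. CD8+ against CD4+ gave 9 to 48 called members in STAT3KO donors with 1 library left out, and 53 to 54 in WT donors.

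Replicate numbers are shared by the groups, but the labels do not say that they mark a batch or a day, and there are only 2. The deviations of same-numbered libraries correlated between 0.44 and 0.73 across the 6 pairs of groups. A fit with a replicate block called 55 members higher in the CD4+ comparison (16.5% of all genes called higher), 26 in the CD8+ comparison (10.3%), 56 for CD8+ against CD4+ in WT (20.6%) and 55 in STAT3KO donors (14.4%), and 35 lower for the difference of the effects (2.08% called lower).

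Signs turned for members near 0, and the cause was not tested. Of the 56 CD8+ estimates, 55 were above 0 with all libraries and 45 without WT CD8+ replicate 2. In CD8+ T cells Cdc20 was at -0.0040 with DESeq2 and with RLE factors, -0.0358 with total counts, -0.0116 without the filter, -0.0020 with the libraries of the comparison alone, and between -0.283 and 0.332 with 1 library left out. Cdca8 was at -0.0214 with total counts and between -0.136 and 0.170 with 1 library left out. With 1 library left out, Plk1 ran from -0.152 to 0.617, Incenp from -0.0210 to 0.188 and Foxm1 from -0.112 to 0.321, each lowest without WT CD8+ replicate 2. For Pttg1 the difference of the effects ran from -0.0170 (without WT CD4+ replicate 2) to 0.179.

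The lowest count of a member in a library was 94, and the depth behind the members was not varied.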

Other observations

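The WT pools differed from each other more than the STAT3KO pools did. The summed level of the 56 mitosis genes was 4203 and 3447 CPM by total count in WT CD4+ and 11373 and 9275 in WT CD8+ T cells, with replicate 1 above replicate 2 in both. It was 8001 and 7769 CPM in STAT3KO CD4+ and 13196 and 13220 in STAT3KO CD8+ T cells. With 2 pools a group, the difference in spread was not tested.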
